A study of Rattus norvegicus with 6 samples.

Results

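Chemokines are small secreted proteins that attract leukocytes, and they act through G protein-coupled receptors. The transcripts of 10 genes of this family were followed in left ventricle of diabetic and control rats: the CC ligands Ccl2, Ccl7 and Ccl20, the CXC ligands Cxcl1, Cxcl2, Cxcl10 and Cxcl12, the CX3C ligand Cx3cl1, and the receptors Ccr10 and Cx3cr1. They were taken by gene name from the probe annotation of the arrays, as 10 of 26456 gene names, 12 of 30367 probes and 30 of 42877 spots. The 10 names were picked with the strain difference of these same arrays already known, so their levels and differences are a description and carry no test. Every one of the 12 probes passed the filter on dim signal, and 11 of them were well above background on all 6 arrays.

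The arrays compared left ventricular tissue of 3 male OLETF rats with that of 3 male LETO rats, 1 sample per array. OLETF is an inbred strain that lacks the cholecystokinin receptor gene Cckar and develops overeating, obesity and type 2 diabetes with age. LETO is the lean, non-diabetic strain used as its control. LETO 1 was 27 weeks old and LETO 2 and LETO 3 were 28 weeks old, whereas OLETF 1 and OLETF 3 were 27 weeks old and OLETF 2 was 28 weeks old. The strains differ at many loci, so strain and diabetes cannot be told apart.

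As background, inflammatory chemokines such as Ccl2, Ccl7, Cxcl1, Cxcl2 and Cxcl10 are kept low in resting tissue and are induced within hours by cytokines, injury or microbial products, largely through the transcription factor NF-kappa-B. Ccl2 and Ccl7 draw monocytes through Ccr2, Cxcl1 and Cxcl2 draw neutrophils through Cxcr2, and Cxcl10 draws activated T cells through Cxcr3. Homeostatic members are made constantly: Cxcl12 holds Cxcr4-bearing cells in place, and the membrane-bound Cx3cl1 of endothelium is recognised by Cx3cr1 of monocytes and resident macrophages. Ccl20 and its receptor Ccr6, and Ccr10 with its ligands Ccl27 and Ccl28, are best known from gut and skin.

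Levels below are log2 of the processed signal over the 75th percentile of the array, so 0 marks a bright probe and each unit is a doubling. They compare arrays for 1 probe and do not rank genes against each other. Between 75.5% and 79.8% of spots were well above background on each array and no spot was saturated, and the 75th percentile was 887 to 1228 units of intensity. Slide 1 carried OLETF 1 beside the 3 LETO arrays, and slide 2 carried OLETF 2 and OLETF 3. A fit with slide as a block therefore reduces to OLETF 1 against the LETO mean. The number of arrays limits the precision, and the p-values of limma measure the spread between these samples.

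Across the 10 genes 8 had a lower and 2 a higher mean in OLETF, with a median log2 difference of −0.75, against −0.01 over all 18816 genes tested, of which 52.4% were lower. The fit over all genes with limma called 480 genes at an adjusted p of 0.05, or 2.55%, with 283 higher (1.5%) and 197 lower (1.05%). Ccr10 was among those higher and Ccl20 among those lower, and the other 8 genes were not called. The levels of the strains did not overlap for 3 of the 10, against 17.4% of all genes. Ccr10 was the 1 that lay higher in OLETF (8.92% of all genes), and Ccl20 and Cxcl12 were the 2 that lay lower (8.43% of all genes). Since the 10 genes were picked on this contrast, nothing is read from these counts.

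**Figure D1:**
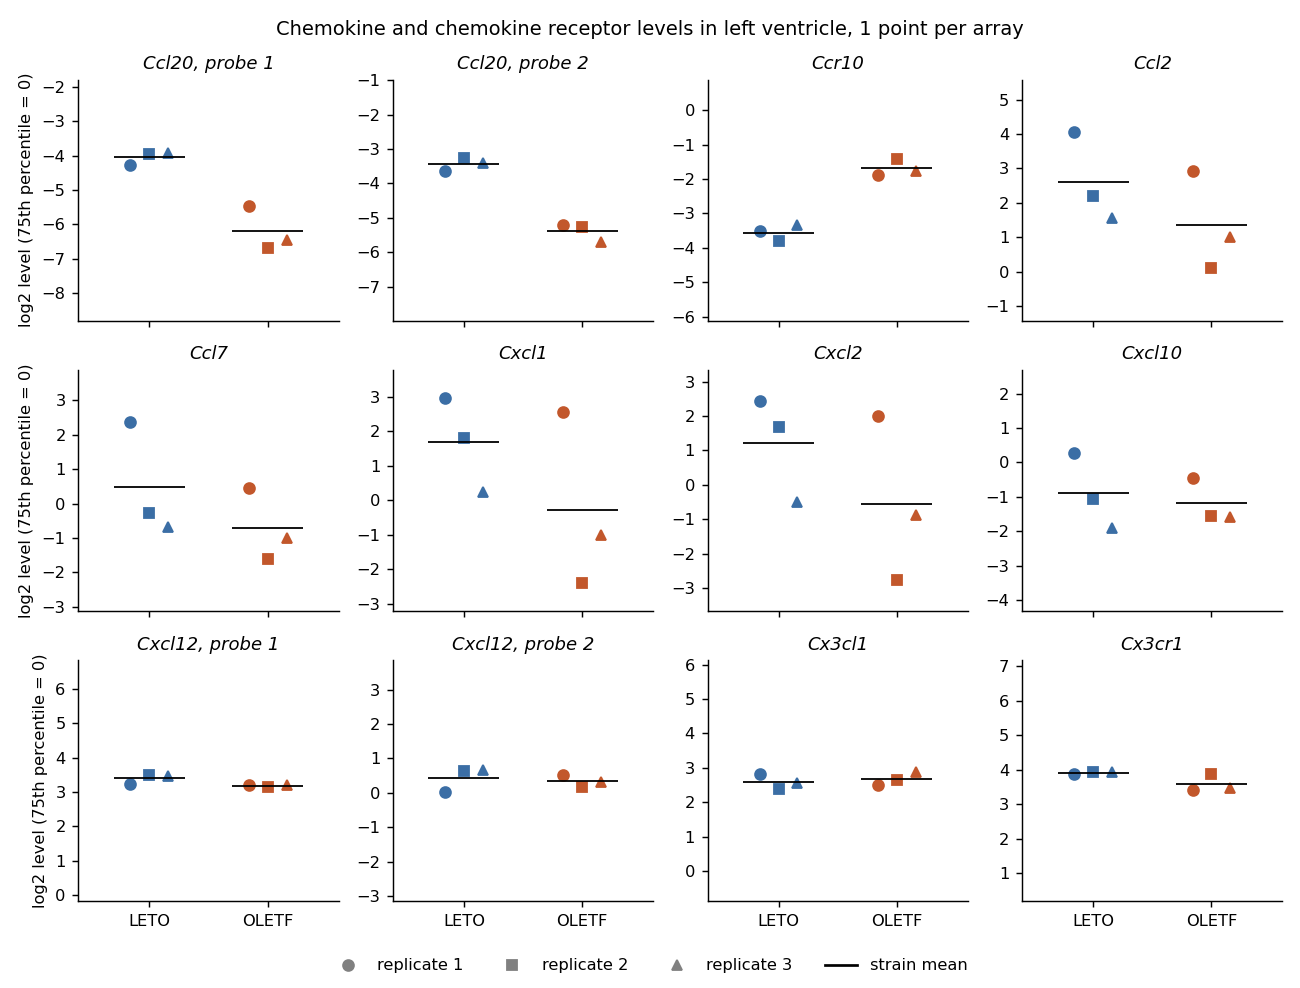
Log2 level over the 75th percentile of the array (vertical axis, with the same length of scale in each panel) for each probe of the 10 genes, with LETO in blue, OLETF in orange, marker shape for the replicate and a line at the strain mean. Ccr10 and probe 2 of Ccl20 separate the strains by more than the range within either, while probe 1 of Ccl20 spreads more in OLETF. The 5 inflammatory ligands are spread within both strains, and Cxcl12, Cx3cl1 and Cx3cr1 lie nearly level.

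Ccl20 is the only known chemokine ligand of Ccr6. It was the one ligand of the 10 whose strains lay further apart than the rats within either strain, on its brighter probe. The array carries a pair of probes for it, at chr9:82443347-82443406 and chr9:82443354-82443413 of rn4, plus strand. Their first 30 bases are shown because the probes overlap, with the bases that both probes share in capitals; over their whole length of 60 bases they share 53.
Ccl20 probe 1: tgaagggCGCTTAGTAAAAGGTTCAATATT
Ccl20 probe 2: CGCTTAGTAAAAGGTTCAATATTATGTTTA
Both probes read nearly the same stretch of the transcript, so they are not separate measurements of it.

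Probe 2, the brighter one, had Ccl20 levels of −3.65, −3.26 and −3.41 in LETO 1 to 3, against −5.20, −5.27 and −5.72 in OLETF 1 to 3. All 3 LETO rats lay above all 3 OLETF rats, with 1.55 log2 units between the closest pair. The means were −3.44 ± 0.20 in LETO and −5.40 ± 0.28 in OLETF (SD, n = 3 each), a log2 difference of −1.96 ± 0.17 (SE), or 3.88-fold lower in OLETF. In processed signal this was 84.3, 99.4 and 99.6 units in LETO against 33.5, 23.0 and 23.3 units in OLETF, so Ccl20 was a dim transcript in both strains. Such a level can fall through fewer cells that make the transcript or through less of it per cell, which cannot be told apart in whole tissue, and this holds for every gene below.

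On probe 1 of Ccl20 the levels were −4.26, −3.96 and −3.91 in LETO, against −5.46, −6.68 and −6.45 in OLETF. The strains again did not overlap, with means of −4.04 ± 0.19 and −6.20 ± 0.64 (SD, n = 3 each) and a log2 difference of −2.16 ± 0.30 (SE). OLETF 1 was the only OLETF array on which probe 1 was well above background, so its OLETF mean rests partly on signal near the floor. On slide 1 alone, OLETF 1 minus the LETO mean was −1.76 on probe 2. With normexp background correction and quantile normalization the difference of Ccl20 shrank to −0.83, a setting that adds 50 units to every signal and so compresses dim ones.

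Ccr10, the receptor for Ccl27 and Ccl28 on skin-homing T cells and on antibody-secreting cells, moved the other way. Its 1 probe lies at chr10:90194383-90194442 of rn4 on the minus strand. Ccr10 levels were −3.52, −3.81 and −3.34 in LETO 1 to 3, against −1.88, −1.42 and −1.77 in OLETF 1 to 3. Every OLETF rat was above every LETO rat, with 1.46 log2 units between the nearest ones. The means of −3.56 ± 0.24 and −1.69 ± 0.24 (SD, n = 3 each) gave a log2 difference of 1.87 ± 0.17 (SE), 3.65-fold higher in OLETF.

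In processed signal Ccr10 read 91.9, 67.9 and 104 units in LETO, against 334, 332 and 359 units in OLETF. On slide 1 OLETF 1 exceeded the LETO mean by 1.68 on the log2 scale. With slide as a block, where 0.558% of all genes were called by limma, Ccl20 was among them and Ccr10 was not. The RefSeq table places Cntnap1, a contact protein of myelinated axons, on a span that overlaps Ccr10. Cntnap1 levels were −1.69, −2.79 and −2.10 in LETO, against −1.53, −0.92 and −1.10 in OLETF. These also did not overlap, and the log2 difference of 1.01 ± 0.29 (SE) was not called (limma adjusted p = 0.168). Whether transcription of the neighbour adds to the Ccr10 signal was not tested.

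The partners of both genes were dim or level. Ccr6, the receptor of Ccl20, had levels of −4.62, −5.89 and −5.52 in LETO, against −4.15, −5.68 and −6.20 in OLETF, and it was well above background on 3 LETO and 2 OLETF arrays. The strains overlapped fully, with a log2 difference of 0.00 ± 0.55 (SE, limma adjusted p = 1). Ccl27, a skin chemokine and a ligand of Ccr10, differed by 0.10 ± 0.11 (SE, limma adjusted p = 0.876) on the log2 scale. Ccl28, the mucosal ligand of Ccr10, was not well above background on any array.

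Over the 6 arrays, with each gene centred on its own mean, the genes most like Ccl20 were Btla and Otud7b, among 12096 genes with a symbol. Btla, an inhibitory receptor of lymphocytes, differed from the Ccl20 pattern by a root mean square of 0.14 log2 units and had a strain difference of −1.77. Otud7b, a deubiquitinase, differed by 0.16 and had a strain difference of −1.71. Nearest to Ccr10 were Tsks, a kinase substrate known from testis, at 0.08, and Folr2, a folate receptor of tissue macrophages, at 0.19, with strain differences of 1.86 and 1.94. For Ccl2 the nearest were Egr2, an immediate early transcription factor, at 0.15, and the chemokine Ccl3, at 0.17. Genes picked for likeness over the same 6 arrays have a similar strain difference by selection, so nothing is read from it.

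Ccl2, the main monocyte attractant, was read by 1 probe at chr10:70257919-70257978 of rn4, printed 10 times on each array. Ccl2 stood at 4.05, 2.20 and 1.56 in LETO 1 to 3 and at 2.92, 0.10 and 1.01 in OLETF 1 to 3. LETO 1 and OLETF 1 were the highest of the 6, and OLETF 1 lay above LETO 2 and LETO 3, so the strains overlapped. The means were 2.61 ± 1.29 in LETO and 1.34 ± 1.44 in OLETF (SD, n = 3 each), and their log2 difference of −1.26 ± 0.85 (SE) was smaller than either SD. The repeat spots of Ccl2 on 1 array had an SD of 0.04 to 0.05, which covers spot-to-spot reading alone and leaves out labelling and hybridisation.

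Ccl7, a close relative of Ccl2 that also attracts monocytes, had its probe at chr10:70268674-70268733 of rn4, 10.76 kb from that of Ccl2. Its levels were 2.36, −0.28 and −0.67 in LETO, against 0.46, −1.60 and −0.996 in OLETF. LETO 1 was again the highest and OLETF 1 the next. The means of 0.47 ± 1.65 and −0.71 ± 1.06 (SD, n = 3 each) differed by −1.18 ± 0.86 (SE) on the log2 scale.

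Cxcl1, a neutrophil attractant, ranged most widely among the 10 genes. Its probe at chr14:18690468-18690527 of rn4, minus strand, was also printed 10 times. Cxcl1 gave 2.98, 1.81 and 0.24 in LETO, against 2.57, −2.41 and −1.01 in OLETF. OLETF 1 was thus within reach of LETO 1, while OLETF 2 was the lowest of all, 4.98 log2 units below OLETF 1. The means of 1.68 ± 1.37 and −0.28 ± 2.57 (SD, n = 3 each) differed by −1.96 ± 1.27 (SE), nominally 3.90-fold lower in OLETF. Repeat spots of Cxcl1 on 1 array had an SD of 0.02 to 0.09, with the same limit as for Ccl2.

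Cxcl2, which shares the receptor Cxcr2 with Cxcl1, lies beside it, with probes 13.3 kb apart and its own at chr14:18677165-18677224 of rn4, minus strand. Cxcl2 levels were 2.43, 1.67 and −0.50 in LETO, against 2.00, −2.77 and −0.89 in OLETF. The order of the arrays was that of Cxcl1. The means of 1.20 ± 1.52 and −0.55 ± 2.40 (SD, n = 3 each) differed by −1.75 ± 1.24 (SE), with overlap of the strains.

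Cxcl10, an interferon-induced attractant of activated T cells, had the smallest strain difference of the 5 inflammatory ligands. Its probe lies at chr14:17267994-17268053 of rn4. Cxcl10 levels were 0.27, −1.07 and −1.91 in LETO, against −0.44, −1.55 and −1.58 in OLETF. LETO 1 and OLETF 1 were once more on top, and the lowest rat was LETO 3. The means of −0.90 ± 1.10 and −1.19 ± 0.65 (SD, n = 3 each) differed by −0.29 ± 0.56 (SE).

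Among the 10 genes, these 5 ligands were set apart by their spread between rats of the same strain. The pooled SD within strains was 2.06 for Cxcl1, 2.01 for Cxcl2, 1.39 for Ccl7, 1.37 for Ccl2 and 0.90 for Cxcl10, against a median of 0.15 over all 18816 genes. Only 4 genes had a larger SD than Cxcl1 and 5 a larger one than Cxcl2, and 140 exceeded Cxcl10. Wide spread was not particular to these 5 within the family. Ccl3 had an SD of 1.48 in LETO and 1.48 in OLETF, and Ccl12 had 1.32 and 1.86. Other family members were tight, such as Ccl24 with 0.02 and 0.10. Ccl20 and Ccr10, at 0.24 each, were exceeded by 3558 and 3670 genes, or 18.9% and 19.5%, so they too lay above the median. Cxcl12, at 0.10, was exceeded by 72.2% of all genes.

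**Figure D2:**
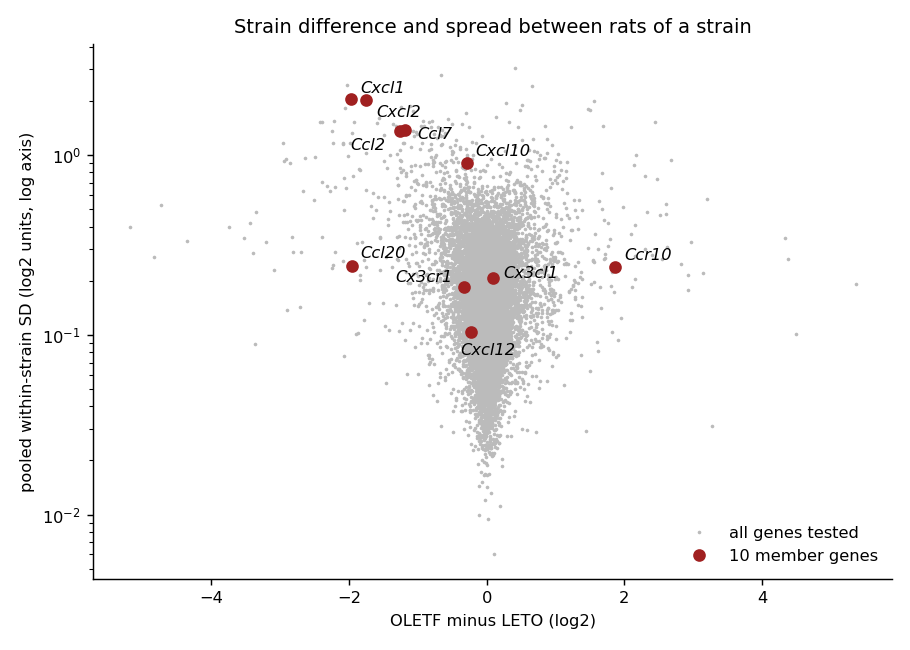
Log2 strain difference, OLETF minus LETO (horizontal axis), against the pooled SD within strains in log2 units (vertical axis, log scale) for 18816 genes in grey and the 10 chemokine genes in red. Ccl20 at −1.96 and Cxcl1 at −1.96 have the same difference, but their SDs are 0.24 and 2.06.

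The strain difference of the inflammatory ligands changed with the arrays used. On the shared slide OLETF 1 lay above the LETO mean by 0.31 for Ccl2, 0.89 for Cxcl1, 0.80 for Cxcl2 and 0.46 for Cxcl10, and differed by −0.01 for Ccl7. The mean of OLETF 2 and OLETF 3, both on the other slide, lay below OLETF 1, with log2 differences of −2.36 for Ccl2, −1.76 for Ccl7, −4.28 for Cxcl1 and −3.83 for Cxcl2. Without OLETF 1 the strain difference was −2.05 for Ccl2, −3.39 for Cxcl1 and −3.03 for Cxcl2, and none of them was called. Without OLETF 2 it was −0.64 for Ccl2, −0.74 for Ccl7, −0.90 for Cxcl1 and −0.64 for Cxcl2. Without LETO 1 it was −0.54 for Ccl2, −0.24 for Ccl7, −1.31 for Cxcl1, −1.14 for Cxcl2 and 0.29 for Cxcl10. Slide and rat cannot be told apart for OLETF 2 and OLETF 3, while the gap between LETO 1 and the other LETO rats lies within 1 slide. LETO 1, OLETF 1 and OLETF 3 were 27 weeks old, and the part of age was not tested.

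Ccl2, Ccl7, Cxcl1 and Cxcl2 shared 1 order of the 6 arrays, from LETO 1 through OLETF 1, LETO 2, LETO 3 and OLETF 3 down to OLETF 2. This order was singled out after the values were seen. It was shown by 52 of all 18816 genes, or 0.276%, and Ccl3, Ccl4 and Ccl12, other inflammatory CC ligands, were 3 of the 52. The cytokines Tnf and Il1b and the endothelial adhesion genes Icam1 and Sele also had it, as 4 of 17 NF-kappa-B genes tested. Among 21 immediate early genes tested, 5 had it, namely Egr1, Egr2, Ier3, Klf6 and Myc. None of 8 other CXC and XC ligands, 14 other receptors, 4 proteases and 11 receptor signalling genes tested had it, nor did any tested gene of the cell type marker lists.

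**Figure D3:**
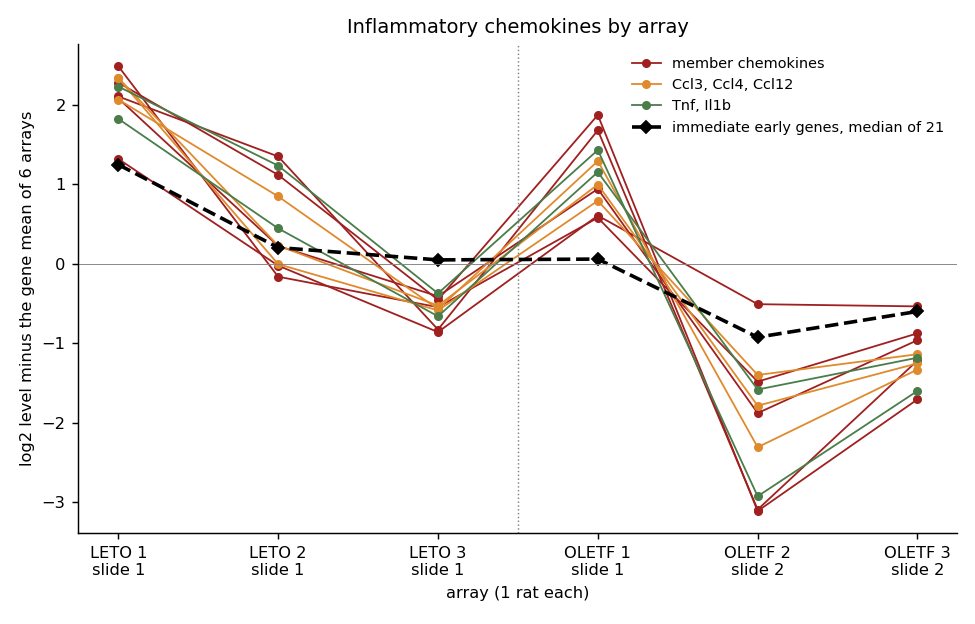
Log2 level minus the gene's mean over the 6 arrays (vertical axis) in each array (horizontal axis), for Ccl2, Ccl7, Cxcl1, Cxcl2 and Cxcl10 in red, Ccl3, Ccl4 and Ccl12 in orange, Tnf and Il1b in green and the median of 21 immediate early genes as a dashed black line; the dotted line divides the strains and the joining lines only guide the eye. LETO 1 and OLETF 1 are the high points for every chemokine drawn and for Tnf and Il1b.

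With each gene centred on its mean, the median of Ccl2, Ccl7, Cxcl1, Cxcl2 and Cxcl10 was 2.10, 0.22 and −0.55 in LETO 1 to 3, against 0.94, −1.88 and −0.96 in OLETF 1 to 3. The immediate early genes, transcription factors and other regulators whose transcripts respond quickly to stress, had medians of 1.25, 0.20 and 0.05 in LETO, against 0.06, −0.92 and −0.60 in OLETF. Both sets were highest in LETO 1 and lowest in OLETF 2. OLETF 1 came next to LETO 1 for the chemokines and lay level with LETO 3 for the immediate early genes. All 21 immediate early genes had lower means in OLETF, where 52.4% of all genes did. Their median log2 difference of −0.88 was −0.36 with slide as a block. None of the 21 was called, where 2.55% of all genes were. Among them Junb had −1.28 (limma adjusted p = 0.246) and Jun −0.81 (limma adjusted p = 0.138).

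NF-kappa-B sites near the start are a known feature of inflammatory chemokine genes, so the promoters of members with a kappa-B match are shown. Of these, Ccl7, Cxcl1 and Cxcl2 had the array order above, and Cxcl10 and Ccl20 did not. RefSeq (GRCr8) lists a promoter for 8 of the 10 genes, with none for Ccl2 and Ccr10. The 150 bases before the start are printed 5′ to 3′ on the strand of the gene, with matches to the kappa-B consensus, searched on both strands, in capitals; overlapping matches form 1 run.
Ccl7, chr10:67513945-67514094, plus: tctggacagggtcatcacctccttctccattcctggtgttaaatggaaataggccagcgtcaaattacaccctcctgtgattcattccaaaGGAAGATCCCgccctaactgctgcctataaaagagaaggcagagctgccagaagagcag
Cxcl1, chr14:17479322-17479471, minus: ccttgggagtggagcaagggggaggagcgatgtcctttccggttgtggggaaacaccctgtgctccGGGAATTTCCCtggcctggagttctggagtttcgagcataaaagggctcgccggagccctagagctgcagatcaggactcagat
Cxcl2, chr14:17467256-17467405, minus: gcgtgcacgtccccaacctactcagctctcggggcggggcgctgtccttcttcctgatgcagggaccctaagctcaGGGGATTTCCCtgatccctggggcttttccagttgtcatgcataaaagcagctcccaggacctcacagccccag
Cxcl10, chr14:15988916-15989065, plus: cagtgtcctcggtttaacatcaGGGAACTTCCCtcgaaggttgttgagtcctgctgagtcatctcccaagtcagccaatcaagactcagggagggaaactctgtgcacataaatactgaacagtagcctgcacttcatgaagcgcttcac
Ccl20, chr9:91837009-91837158, plus: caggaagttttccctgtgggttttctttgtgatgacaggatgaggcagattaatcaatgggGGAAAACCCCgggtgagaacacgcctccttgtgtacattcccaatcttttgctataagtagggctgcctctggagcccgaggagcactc

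A kappa-B match stood in 5 of the 8 listed promoters, against 1277 of 33469 promoters of the same length, or 3.82%. The matches lay 59 to 50 bases before the start in Ccl7, 84 to 74 in Cxcl1, 74 to 64 in Cxcl2, 128 to 118 in Cxcl10 and 89 to 80 in Ccl20. The part of NF-kappa-B in the levels of any of these genes was not tested. The AP-1 letters TGANTCA, searched on both strands, were found in Ccl7 and Cxcl10 and in 1234 promoters of all, or 3.69%. In Cxcl12, Cx3cl1 and Cx3cr1 neither motif was found in this window. A match is a description of letters, and no match says nothing about either factor.

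The homeostatic genes differed little between strains, most for Cx3cr1. Cxcl12, made by stromal and endothelial cells, had probes annotated to different transcripts at chr4:153516205-153516264 and chr4:153510285-153510344 of rn4, 5.92 kb apart. On the brighter probe Cxcl12 was 3.23, 3.50 and 3.46 in LETO, against 3.19, 3.14 and 3.20 in OLETF. The strains did not overlap, but only 0.03 log2 units lay between them, and the means of 3.40 ± 0.14 and 3.18 ± 0.03 (SD, n = 3 each) differed by −0.22 ± 0.10 (SE). The other Cxcl12 probe gave 0.02, 0.63 and 0.67 in LETO, against 0.51, 0.18 and 0.31 in OLETF. There the strains overlapped, with a log2 difference of −0.11 ± 0.19 (SE), so the lack of overlap was seen on 1 of its probes.

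Cx3cl1, the membrane-bound ligand of endothelium, was measured at chr19:10667029-10667088 of rn4, minus strand. Its levels were 2.82, 2.37 and 2.55 in LETO, against 2.50, 2.63 and 2.87 in OLETF. The strains overlapped, and the means of 2.58 ± 0.22 and 2.67 ± 0.19 (SD, n = 3 each) differed by 0.09 ± 0.15 (SE). The sign of this difference turned with slide as a block, to −0.08.

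Cx3cr1, the receptor of Cx3cl1, had its probe at chr8:125033728-125033787 of rn4, minus strand. Cx3cr1 levels were 3.87, 3.93 and 3.93 in LETO, against 3.41, 3.88 and 3.46 in OLETF. OLETF 1 and OLETF 3 lay below all LETO rats, and OLETF 2 just reached LETO 1, by 0.01. The means of 3.91 ± 0.04 and 3.58 ± 0.26 (SD, n = 3 each) differed by −0.32 ± 0.14 (SE). On slide 1 alone, OLETF 1 minus the LETO mean was −0.50. The last 30 bases of this probe are shown because they end in a CA repeat, in capitals.
Cx3cr1 probe, bases 31 to 60: aacagattCACACACACACACACACACACA
The repeat is 22 bases long, and 17 of all 30367 probes (0.0560%) carry a run of CA, or its complement, of at least that length. All 17 were well above background on all 6 arrays, against 67.9% of all probes, and their median signal was 29596 units against 133 units over all probes. The Cx3cr1 probe had a median signal of 14032 units. How much of its brightness comes from other transcripts with such repeats was not tested.

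The receptors of the inflammatory and homeostatic ligands were mostly dim. Ccr2, the monocyte receptor for Ccl2 and Ccl7, was at −5.77, −5.66 and −5.79 in LETO, against −4.65, −5.28 and −5.0 in OLETF. Every OLETF rat was above every LETO rat, and the log2 difference of 0.76 ± 0.16 (SE) did not pass (limma adjusted p = 0.0643), with 2 of 3 LETO arrays well above background. Ccr2 entered the test through OLETF, where it is higher, and its LETO levels lay near the lowest signal well above background, so nothing is read from the lack of overlap. The slide block gave Ccr2 a value of 1.09, and without OLETF 2 limma called it at 0.91 (adjusted p = 0.0478), with the same limit. Cxcr2, listed under its older name Il8rb, was well above background on 1 LETO array and was not tested.

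Cxcr3, the receptor for Cxcl10, had a log2 difference of −0.37 ± 0.28 (SE, limma adjusted p = 0.744). Cxcr4, the signalling receptor for Cxcl12, had 0.08 ± 0.29 (SE, limma adjusted p = 0.97). Ackr3, listed as Cxcr7, a scavenger of Cxcl12, had −0.16 ± 0.24 (SE, limma adjusted p = 0.919). For Ackr1, a chemokine-binding protein of red cells and venules, no probe was matched by name.

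Of 53 further chemokine and receptor genes on 4 lists drawn up by family, 49 were found by name and 36 were tested. None of the 36 was called by limma, where 2.55% of all genes were. Ccl20 and Ccr10, the called genes of the family, had been set apart with this contrast known. The absence of calls among the rest was partly set by that choice, so nothing is read from it. Of the 36, 5 had an unadjusted p under 0.05, where 12.4% of all genes did, namely Ccl5, Ccl11, Ccr2, Ccrl2 and Cmklr1. The strains did not overlap for 5, namely Ccl5, Cxcl9, Ccr2, Ccrl2 and Cmklr1, where 17.4% of all genes showed no overlap; both sets are named by their values. Means were higher in OLETF for 12 and lower for 24, with a median log2 difference of −0.12, which was 0.02 with slide as a block. Ligands were 7 higher and 15 lower of 22 tested, with a median of −0.17 that was −0.01 with slide as a block, and receptors were 5 higher and 9 lower of 14 tested. Over all genes 52.4% were lower.

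Among 14 CC ligands tested 4 were higher and 10 lower, with a median of −0.20. Ccl24, an eosinophil attractant, had a log2 difference of 0.00 ± 0.09 (SE), and Ccl5, a T cell attractant, had −0.25 ± 0.10 (SE, limma adjusted p = 0.393). Ccl21, a lymph node homing chemokine, had −0.36 ± 0.92 (SE, limma adjusted p = 0.957), with levels from −1.27 to 1.76 within LETO. Ccl3, a monocyte attractant, was at 2.33, 0.22 and −0.53 in LETO, against 0.99, −1.79 and −1.26 in OLETF, a log2 difference of −1.36 ± 0.91 (SE, limma adjusted p = 0.687). Its high arrays were those of Ccl2.

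The following CC ligands are named after their values were seen. Ccl12, a rodent relative of Ccl2, was at 0.78, −0.43 and −1.85 in LETO, against 0.01, −3.59 and −2.61 in OLETF, a log2 difference of −1.56 ± 0.99 (SE, limma adjusted p = 0.658). Ccl11, or eotaxin, was at −4.70, −4.26 and −4.56 in LETO, against −4.69, −6.09 and −6.13 in OLETF. OLETF 1 lay with the LETO rats and OLETF 2 and OLETF 3 were not well above background, and the log2 difference was −1.13 ± 0.38 (SE, limma adjusted p = 0.252). Ccl11 entered the test through LETO, and the size of its difference against such dim signal is uncertain. Without OLETF 1 limma called Ccl11 lower, against signal that was not well above background, and also Ccl19, a lymph node homing chemokine, at −1.64 (adjusted p = 0.0133).

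Of 8 CXC and XC ligands tested 3 were higher and 5 lower, with a median of −0.15. Cxcl16, a scavenger receptor and T cell attractant, had 0.05 ± 0.09 (SE), and the platelet chemokine Pf4 had −0.20 ± 0.18 (SE). Cxcl14, made in epithelia, had a log2 difference of −0.67 ± 0.41 (SE, limma adjusted p = 0.641). Cxcl11, which like Cxcl10 binds Cxcr3, had −0.75 ± 0.32 (SE, limma adjusted p = 0.406).

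Of 9 other signalling receptors tested 4 were higher and 5 lower, with a median of −0.01. Ccr9, a gut-homing receptor, had −0.06 ± 0.18 (SE), and Ccr7, the receptor for Ccl19 and Ccl21, had 0.23 ± 0.18 (SE). Of 5 atypical and related receptors 1 was higher and 4 lower, with a median of −0.16. The strains did not overlap for Ccrl2, a chemerin-binding protein, at −0.48 ± 0.17 (SE, limma adjusted p = 0.283). Nor did they for Cmklr1, the signalling receptor for chemerin, at 0.42 ± 0.15 (SE, limma adjusted p = 0.274). Ccr1l1 had −0.03 ± 0.15 (SE).

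**Figure D4:**
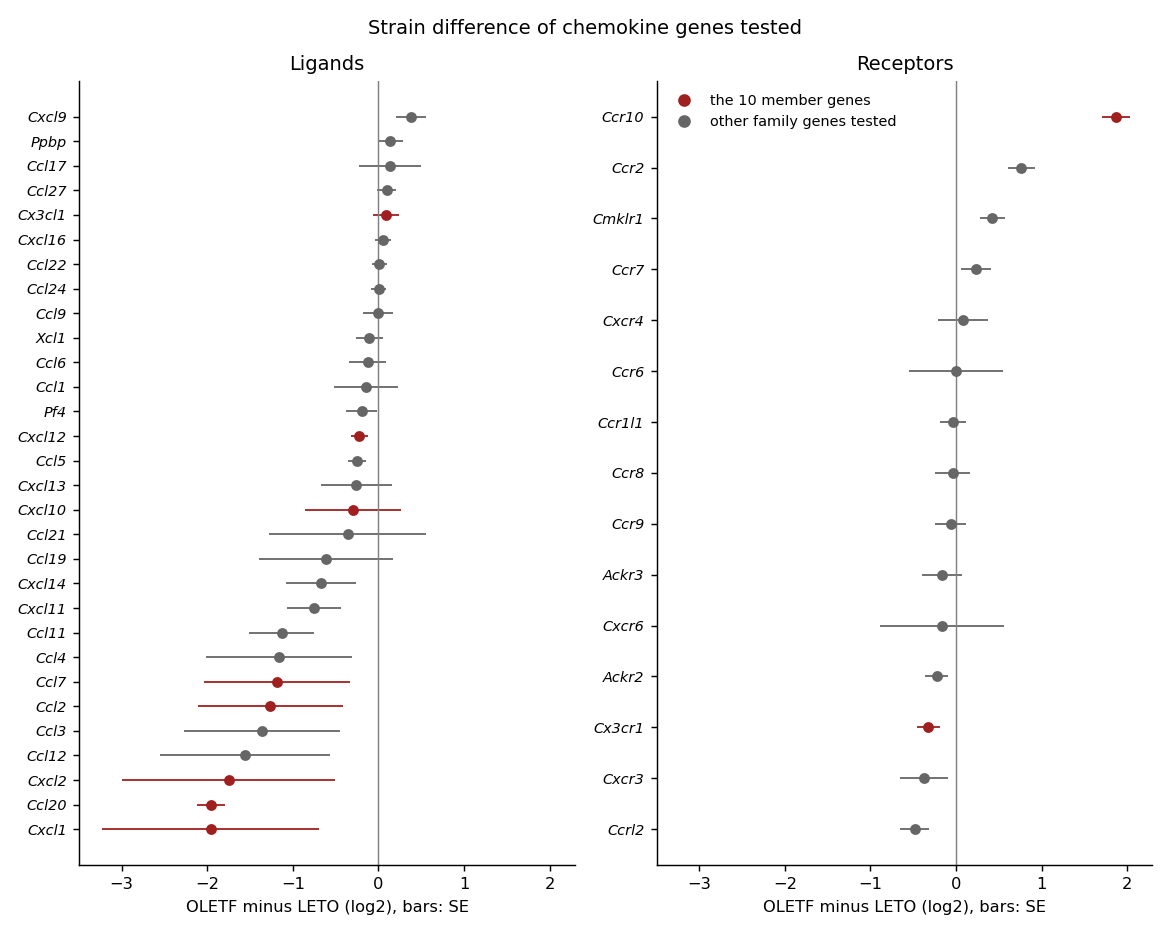
Log2 strain difference, OLETF minus LETO (horizontal axis), with its SE as bars, for the 30 ligands (left) and 15 of the 16 receptors (right) tested; the 10 genes of this account are red and other family genes grey. Ccr10 at 1.87 stands at the top of the receptors, and Ccl20 has a narrow bar at −1.96 where Cxcl1 has a wide one.

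Genes upstream and downstream of chemokines did not pass either. Of 17 NF-kappa-B pathway genes and targets tested, 4 were higher and 13 lower, where 52.4% of all genes were lower. Their median log2 difference was −0.17, and it was −0.01 with slide as a block. None of the 17 was called, where 2.55% of all genes were. Irf1, an interferon-response factor, had −0.29 ± 0.27 (SE), and the inhibitor Nfkbia had 0.13 ± 0.18 (SE). Tnf had −1.07 ± 0.84 (SE, limma adjusted p = 0.763) and Il1b −2.06 ± 1.13 (SE, limma adjusted p = 0.57), both with the array order of Ccl2 and named after their values were seen. None of 4 chemokine-cutting proteases tested was called, with Mmp2 at −0.10 ± 0.16 (SE) and Adam10 at 0.11 ± 0.08 (SE). None of 11 genes of receptor signalling was called, with the G protein subunits Gnai2 at 0.08 ± 0.09 (SE) and Gnai3 at −0.01 ± 0.11 (SE).

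The cells that make and read chemokines were followed by marker lists, whose summed levels are on a linear scale over the 75th percentile. Cardiomyocyte markers summed to 2024 to 2295 in LETO and 1893 to 2315 in OLETF, so the defining transcripts of heart muscle were abundant in every sample, with 7 of 7 tested and none called. Macrophage and monocyte markers were 11.6 to 14.5 in LETO and 14.4 to 15.2 in OLETF, with 5 of 7 higher and none called. Endothelial markers were 38.0 to 42.2 and 39.3 to 43.6, and fibroblast markers 63.8 to 84.0 and 80.2 to 92.5, with none called.

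T and NK cell markers were 2.50 to 3.15 in LETO and 1.77 to 1.85 in OLETF, and these sums did not overlap. A linear sum is weighted towards the probes with the highest signal, here that of Nkg7 first, and Cd4 was higher in OLETF by 0.10 on the log2 scale. Of 7 tested 6 were lower, against 52.4% of all genes, and 2 were called lower by limma, against 1.05% of all genes, Cd3g of the T cell receptor complex at −0.96 (adjusted p = 0.0178) and Nkg7 of cytotoxic granules at −0.84 (adjusted p = 0.022). With slide as a block both calls of limma were lost (adjusted p = 0.237 for Cd3g and 0.287 for Nkg7). Levels did not overlap for 3 of the 7, Cd3g, Nkg7 and Cd8a, all lower, against 8.43% of all genes. Cd8a was well above background on 2 of 3 OLETF arrays. It entered the test through LETO, where it is higher, so nothing is read from its lack of overlap. Most of the T and NK cell markers moved in the direction of Ccl20 and opposite to Ccr10, and their part in either result was not tested. Only 1 of 5 B cell markers was tested, and the other 4 were not well above background on all arrays of either strain. Neutrophil and mast cell markers summed to 0.20 to 0.22 in LETO and 0.22 to 0.28 in OLETF, with 3 higher and 2 lower of 5 tested. The mast cell gene Cpa3 was the 1 called, at a log2 difference of 1.03 (limma adjusted p = 0.0147), where 1.5% of all genes were called higher. Of the other mast cell genes, Kit had −0.23 and Fcer1a 2.16, and neither was called. Fcer1a was not well above background on any LETO array. In LETO 1 array of 3 did not read Cpa3 well above background, so it entered the test through OLETF, and with slide as a block it was not called (limma adjusted p = 0.182). Red blood cell markers were 6.26 to 22.4 in LETO and 6.64 to 7.71 in OLETF, with the anion exchanger Slc4a1 called higher at 3.19 ± 0.36 (SE, limma adjusted p = 0.00589) and the globin genes Hbb at −2.22 and Hba-a2 at −0.94 not called. With slide as a block Slc4a1 had 2.88 (limma adjusted p = 0.116), and the part of red cells in the inflammatory ligands was not tested. Smooth muscle and pericyte, platelet, and nerve and Schwann cell markers had overlapping ranges and no called gene.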

How the data were processed

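One-colour Agilent Rat GE 4x44K v3 arrays of left ventricle RNA from 3 LETO and 3 OLETF rats were used. The scanner files hold spot intensity with background already subtracted in the processed signal, per the file headers, which give Feature Extraction 10.7.3.1 as the reader; version 9.1 is given in the submitters' processing notes. The deposited value table holds linear intensity scaled per array (column medians 0.167 to 0.176) and was an alternative. Replicate numbers are those of the titles (1 LETO source name and all LETO file names carry other numbers), so LETO 1 means the title's number.

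Processed signal was log2 transformed, the 75th percentile over probes was subtracted, and control spots and outlier-flagged spots were dropped (260 to 356 flagged per array, 17 probes lost). Spots of a probe were averaged. Testing required signal well above background in 1 strain or both, on each of its 3 arrays, and the brightest tested probe stood for a gene. The strains were compared with limma 3.58.1 in R 4.3.3 and Benjamini-Hochberg adjustment over 18816 genes at 0.05; the script was tested on simulated data. The 10 genes and all lists were chosen with earlier results of these data known. Further named genes of a family list were the 4 brightest on all 6 arrays, or 2 of other lists, with receptors and ligands of the 10 added; others are marked, and 1 gene of the rule is not reported here. Probe positions are rn4 as in the files; promoters are RefSeq GRCr8. The 15 alternatives covered scaling, background, filter, probe choice, slide and replicate blocks and each array left out.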

Additional observations from a re-analysis of the deposited data

How the results depend on the processing

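Under 15 alternatives Ccl20 was called lower in all, with differences from −2.06 to −0.83, and Ccr10 was called higher in 14, with differences from 1.33 to 1.98, the exception being slide as a block. Both genes were picked with this contrast known and all settings reuse the same arrays, so these counts describe the settings and carry no test. The deposited value table gave the same values as the main setting. The other 8 genes were called in none. Slide as a block turned the sign of Ccl2 (0.31), Cxcl1 (0.89), Cxcl2 (0.80), Cxcl10 (0.46) and Cx3cl1 (−0.08). The sign of Cxcl10 also turned without LETO 1 (0.29), and that of Cx3cl1 without LETO 2 (−0.02) or OLETF 3 (−0.01). Cxcl12, Cx3cr1 and Ccl7 kept their sign in all 15.

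Over all genes 480 were called, with 240 without the filter on dim probes, where 26442 genes were tested, and 105 with slide as a block. With 1 array left out the count ranged from 212 without OLETF 3 to 614 without LETO 1. Of the 36 other chemokine genes 0 were called, with 5 at an unadjusted p under 0.05, where 12.4% of all genes had one. Nothing is read from this lack of calls, since the called Ccl20 and Ccr10 had been set apart with the contrast known. Without 1 array the number called ranged from 0 to 2. Without the dim filter 49 other chemokine genes were tested and 1 was called, Cxcl17 at −0.90 (limma adjusted p = 0.0292). Cxcl17 is not one of the 36 and is not well above background on any array. The cause of these shifts was not tested.

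Rats of the strains share only a replicate number. Deviations from the strain mean within numbers correlated at −0.09, −0.14 and −0.01, and the replicate block gave 301 calls over all genes and 0 among the other chemokine genes. Ccl20 lies close to background in OLETF, and 7 of 16 other signalling receptors were too dim to test.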
